A study of Mus musculus with 2 samples.

Results

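The 34 cell cycle and replication genes described here were chosen by symbol from a list and followed in immune cells of mouse tumours, and all 34 were found among the 32245 gene symbols measured. Of these, 16 act in S phase, when DNA is copied, and 17 act around mitosis, when chromosomes are condensed and parted. Stmn1, which encodes the microtubule-destabilising protein stathmin, was kept apart from both groups. Single-cell RNA was measured in 2 libraries, 1 per group, called Tdg_WT (genotype label WT, title KP) and Tdg_KO (genotype label Tdg KO, title KPT). The source is labelled an allograft tumour in mice, taken 14 days after inoculation. In both groups the tumour was dissociated, leukocytes were isolated by their density in Percoll, viable cells carrying CD45 were sorted by flow cytometry, and RNA 3′ ends were captured in droplets. The labels used here give no strain, age or number of mice, and do not say whether tumour cells, host cells or both carry the genotype.

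The libraries held 5504 (Tdg_WT) and 5693 (Tdg_KO) kept cells, with median depths of 5378 and 6419 unique molecular identifiers (UMIs, each standing for 1 captured RNA molecule). Tdg itself was at 25.1 CPM (UMIs per 1000000 UMIs) in Tdg_WT and 26.5 CPM in Tdg_KO. A 3′ count need not show a deletion elsewhere in the gene, so this does not check the label, and directions below refer to the library labelled Tdg_KO. Ptprc, which encodes CD45, was detected in 83.6% and 90.3% of cells. The libraries shared 8 barcodes. Clusters whose barcodes or leading genes combined lineages, mostly lymphocytes and phagocytes, are called mixed clusters and held 388 cells (7.05%) of Tdg_WT and 752 (13.2%) of Tdg_KO, at median depths of 17249 and 17285 UMIs. They were kept out of every cell class. Detection of defining markers in the classes named for them varied. Cd8a was in 92.3% and 96.1% of CD8 T-like cells and Foxp3 in 79.8% and 81.1% of Treg-like cells, while Trdc was in 50.4% and 62.9% of γδ T-like cells. In cDC2-like cells H2-DMb2 was in 64.49% and 70.27%, Cd209a in 42.06% and 45.05%, and Cd1d1 in 14.02% and 16.22%. In macrophage-like cells C1qb was in 82.53% and 91.57% but Mrc1 in 26.77% and 31.02%. In neutrophil-like cells S100a8 was in 84.67% and 82.16% but Retnlg in 17.96% and 13.28%.

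As background, cells that leave rest first license their replication origins by loading the MCM helicase. They then make deoxynucleotides and copy DNA with the sliding clamp PCNA, and later build cyclin B and CDK1 activity, condense chromosomes and assemble the spindle. S phase genes are mainly driven by E2F factors, and most mitotic genes by the DREAM and MuvB complexes through CHR and CCAAT promoter elements. In tumours, dividing T cells, NK cells, dendritic cells and macrophages express these programmes, whereas naive lymphocytes and mature neutrophils do not divide.

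The promoters of 28 of the 34 members were found in the RefSeq promoter set for GRCm38.p6, as windows of 300 bases, 250 before and 50 after the start. Those of Mcm4, Gins2, Ccna2, Tpx2, Aurkb and Stmn1 were not matched. E2F-type 8-mers (TTTCCCGC, TTTCGCGC, TTTGCCGC or TTTGGCGC, both strands) were in windows of 7 of 14 matched S phase members and 1 of 14 mitotic members, against 2.265% of all 32851 windows. The CHR core TTTGAA (both strands) was in 1 of 14 S phase and 10 of 14 mitotic members, against 17.89% of all windows. CCAAT (both strands) was in 9 of 14 and 12 of 14, against 37.41%. These are letter matches only, and their part in the levels below was not tested. Windows of 4 members that the results turn on are printed, with E2F-type matches in capitals for Mcm6 and Pclaf and CHR and CCAAT matches in capitals for Ccnb2 and Cenpa. They lie at chr1:128359656-128359955 (minus strand), chr9:65890073-65890372 (plus), chr9:70421505-70421804 (minus) and chr5:30666636-30666935 (plus). Mcm6, a helicase subunit, has 3 E2F-type matches, of which 2 overlap. Pclaf, a PCNA-binding protein, has 1. The mitotic cyclin Ccnb2 has 2 CHR and 3 CCAAT matches, and the centromeric histone Cenpa has 1 and 2.
Mcm6: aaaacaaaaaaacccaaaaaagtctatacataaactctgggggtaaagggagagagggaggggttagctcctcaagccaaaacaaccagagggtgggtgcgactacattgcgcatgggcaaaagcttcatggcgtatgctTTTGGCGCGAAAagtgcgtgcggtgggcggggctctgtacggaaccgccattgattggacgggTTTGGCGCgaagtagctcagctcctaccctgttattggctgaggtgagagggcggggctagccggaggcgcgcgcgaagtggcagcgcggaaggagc
Pclaf: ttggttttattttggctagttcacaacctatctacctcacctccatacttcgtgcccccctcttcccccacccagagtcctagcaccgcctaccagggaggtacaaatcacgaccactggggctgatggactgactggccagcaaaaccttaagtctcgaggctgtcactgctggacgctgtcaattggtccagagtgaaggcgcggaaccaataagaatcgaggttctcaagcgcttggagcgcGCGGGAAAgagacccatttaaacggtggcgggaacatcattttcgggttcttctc
Ccnb2: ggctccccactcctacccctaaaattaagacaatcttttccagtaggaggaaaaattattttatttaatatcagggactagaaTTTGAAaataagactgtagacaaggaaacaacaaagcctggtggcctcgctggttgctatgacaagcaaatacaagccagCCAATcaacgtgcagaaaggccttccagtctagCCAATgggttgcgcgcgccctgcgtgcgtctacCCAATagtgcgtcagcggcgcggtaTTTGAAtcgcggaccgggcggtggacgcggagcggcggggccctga
Cenpa: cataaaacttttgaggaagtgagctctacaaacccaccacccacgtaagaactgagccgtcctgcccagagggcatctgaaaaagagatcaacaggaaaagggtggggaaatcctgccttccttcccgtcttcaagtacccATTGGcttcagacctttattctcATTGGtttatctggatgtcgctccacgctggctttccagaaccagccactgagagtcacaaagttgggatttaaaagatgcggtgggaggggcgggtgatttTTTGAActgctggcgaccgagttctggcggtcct

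The members were at very different levels among the cell classes, in the same broad order in both libraries. Classes were named from marker genes after clustering without the cell cycle genes, and levels are CPM of the class total, that is, of all UMIs of the class. Dendritic cells of the cDC1-like class had the highest summed S phase level among the immune classes, 938 CPM in Tdg_WT (53 cells) and 1156 CPM in Tdg_KO (81 cells). CD8 T-like cells followed among lymphocytes at 591 and 705 CPM. Naive-like T cells were at 336 and 316 CPM, and neutrophil-like cells at 133 and 284 CPM. A tumour or stroma-like class of 19 and 24 cells was at 1448 and 406 CPM, above cDC1-like cells in Tdg_WT, with 56.8% of the Tdg_WT UMIs in 1 barcode. The mitotic sum was likewise high in cDC1-like cells, at 506 and 788 CPM, and low in neutrophil-like cells, at 64.8 and 131 CPM.

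**Figure D1:**
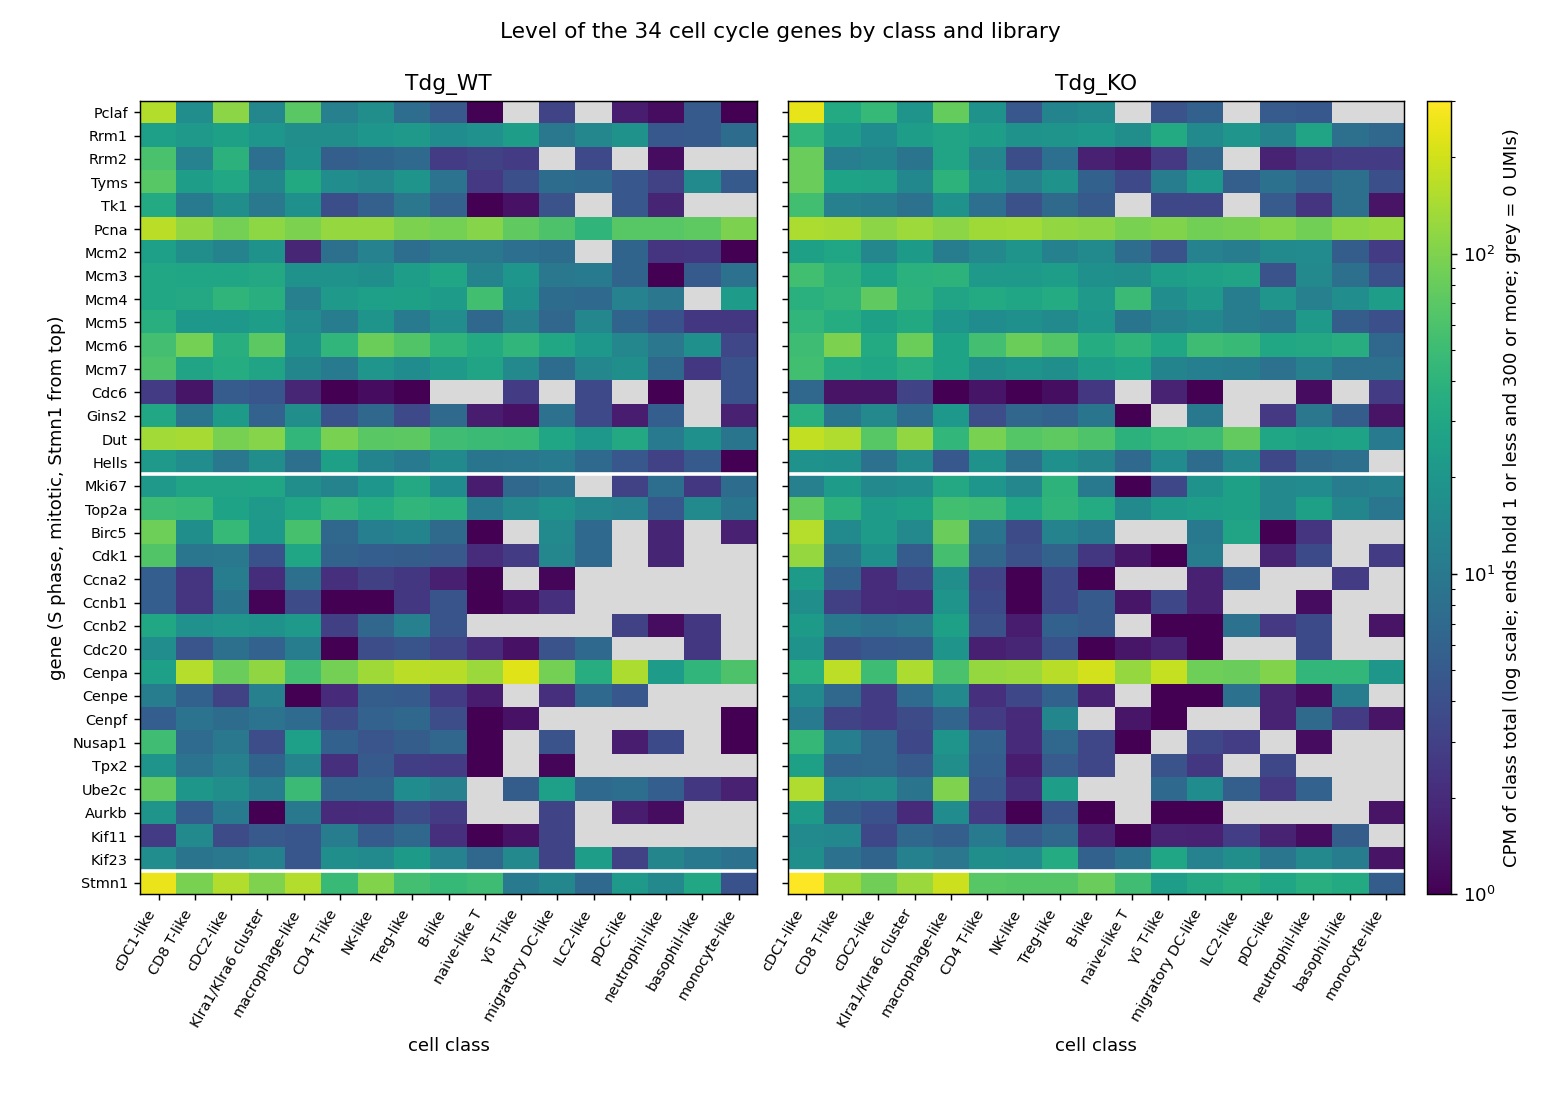
Level of each of the 34 genes (rows) in each immune cell class (columns) of Tdg_WT (left) and Tdg_KO (right), as CPM of the class total on a log colour scale; grey marks 0 UMIs and classes run from high to low summed S phase level. Pcna and Cenpa are bright in nearly every class, including naive-like T cells (Cenpa 128 and 123 CPM), while Pclaf and Birc5 are grey (0 UMIs) in some classes, such as naive-like T cells of Tdg_KO.

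**Figure D2:**
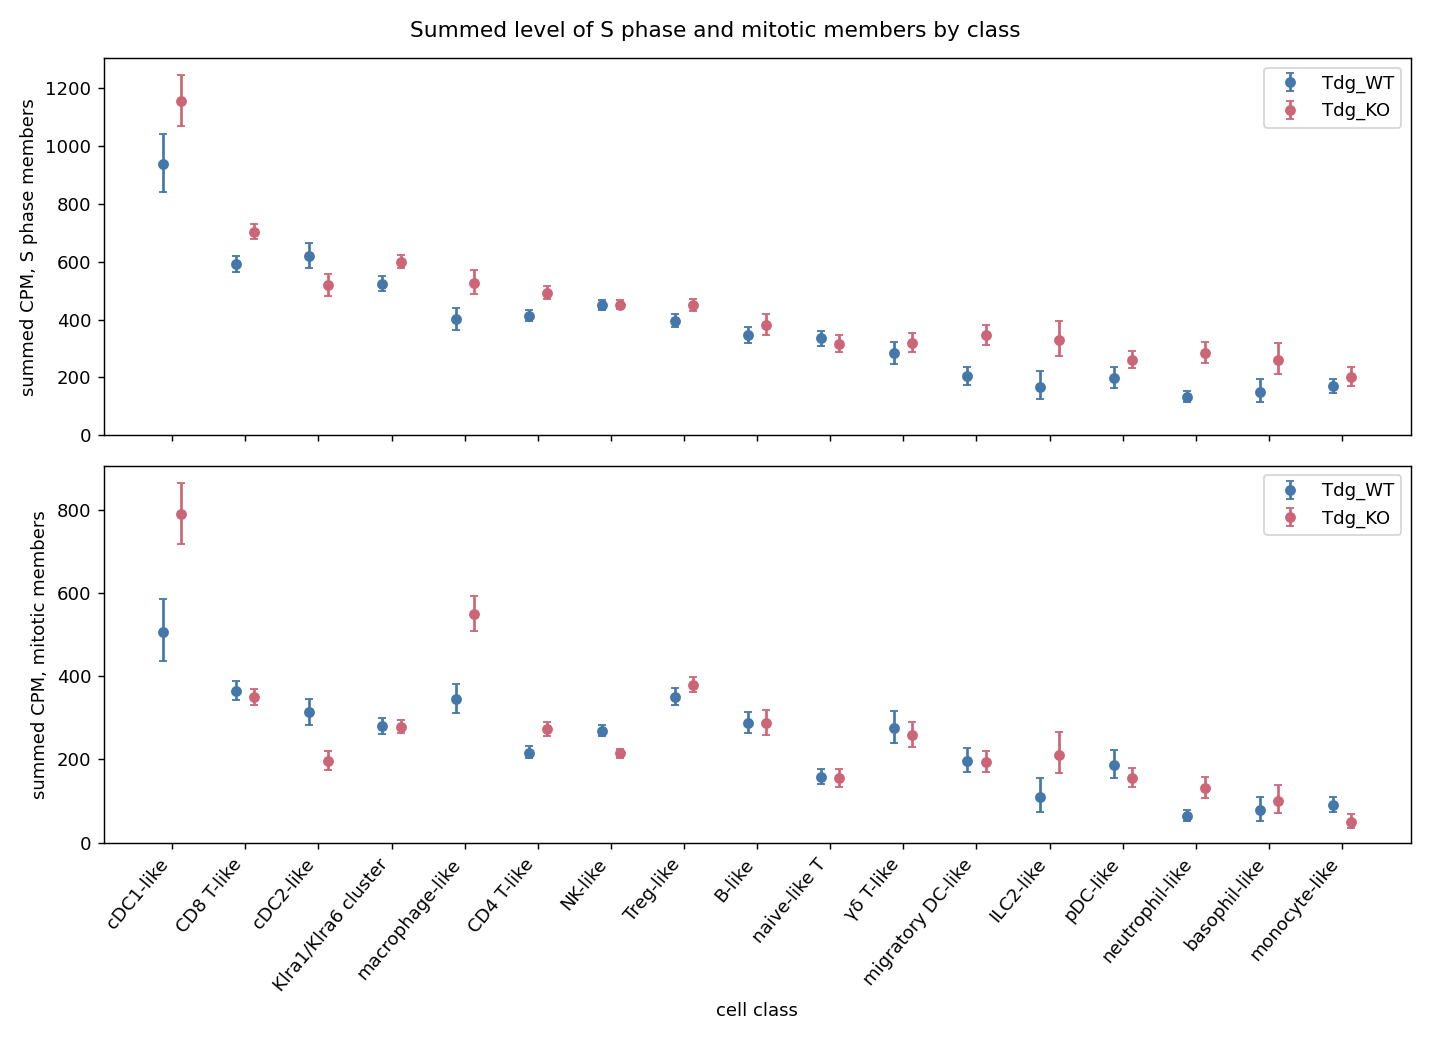
Summed CPM of the 16 S phase members (top) and the 17 mitotic members (bottom) by immune cell class, Tdg_WT in blue and Tdg_KO in red, with exact Poisson 95% intervals that cover counting error only. Of the classes drawn, which leave out the tumour or stroma-like one, cDC1-like is highest in both panels, and Tdg_KO lies above Tdg_WT for mitotic members in macrophage-like cells (344 and 549 CPM) but below it in NK-like cells (268 and 215 CPM).

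Pcna and Cenpa were detected widely, also outside the classes with other mitotic genes. In lymphocytes, which here take in all T-like classes, NK-like, ILC2-like and B-like cells and an unnamed cluster led by Klra1 and Klra6, Pcna was in 43.3% (Tdg_WT) and 50.04% (Tdg_KO) of cells. Cenpa was in 41.9% and 47.7%. In naive-like T cells Pcna was at 106 and 95.3 CPM and Cenpa at 128 and 123 CPM. Pclaf was at 1.03 CPM and 0 UMIs there, and Mki67, the antigen Ki-67 used as a proliferation marker, at 1.54 and 0.701 CPM. Counts of Pcna and Cenpa thus stood beside almost none of Pclaf or Mki67 in that class. Free RNA can give a UMI in a cell that does not express a gene. In neutrophil-like cells, which are shallower (median 1804 and 2235 UMIs), Pcna was in 11.8% and 19.5% of cells, Cenpa in 4.53% and 8.30%, and Pclaf in 0.292% and 1.25%. In CD8 T-like cells (median 7590 and 8372 UMIs) Pcna was in 49.8% and 59.0%, and Pclaf in 4.31% and 6.32%.

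This difference among members was measured cell by cell in the lymphocyte classes. Lymphocytes with UMIs of at least 3 mitotic members were 201 of 3488 (5.76%) in Tdg_WT and 259 of 3711 (6.98%) in Tdg_KO, and held 12.55% and 13.71% of all lymphocyte UMIs. A further 408 and 557 lymphocytes had exactly 2. For each gene, the share of its UMIs in such cells was taken, with the gene itself left out of the 3, so that for mitotic members the cells differ from gene to gene. Ccna2, the S and G2 phase cyclin, had 92.3% and 95.8% of its UMIs there. Ccnb2 had 92.0% and 90.8%, Birc5, the survivin subunit of the chromosomal passenger complex, 89.7% and 94.9%, and Pclaf 90.3% and 85.5%. These 4 genes were the ones above 80% in both libraries, and 12 members were above 60%.

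At the other end Cenpa had 13.6% and 11.4% of its UMIs in such cells. With Cenpa itself left out of the 3 these were 102 and 124 cells, which held 7.25% and 7.39% of all lymphocyte UMIs, and Cenpa was at 254 and 225 CPM in them against 128 and 138 CPM in lymphocytes with no other mitotic member. It gave 3179 of the 6445 mitotic UMIs of Tdg_WT lymphocytes, and 56.3% of its own UMIs there lay in cells with no other mitotic member. Kif23, a kinesin of the central spindle, had 19.8% and 18.1%, Mcm6 17.8% and 21.96%, and Pcna 18.6% and 20.1%. Rrm1, the large subunit of ribonucleotide reductase, had 22.7% and 23.5%, while Rrm2, its small subunit, had 55.8% and 68.0%. The median over the S phase members was 30.4% and 31.5%, and over the mitotic members 64.2% and 66.1%. Cells with 3 or more mitotic members had median depths of 13400 and 13230 UMIs, against 4690 and 5034 in lymphocytes with none, and the part of depth in these shares was not tested.

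**Figure D3:**
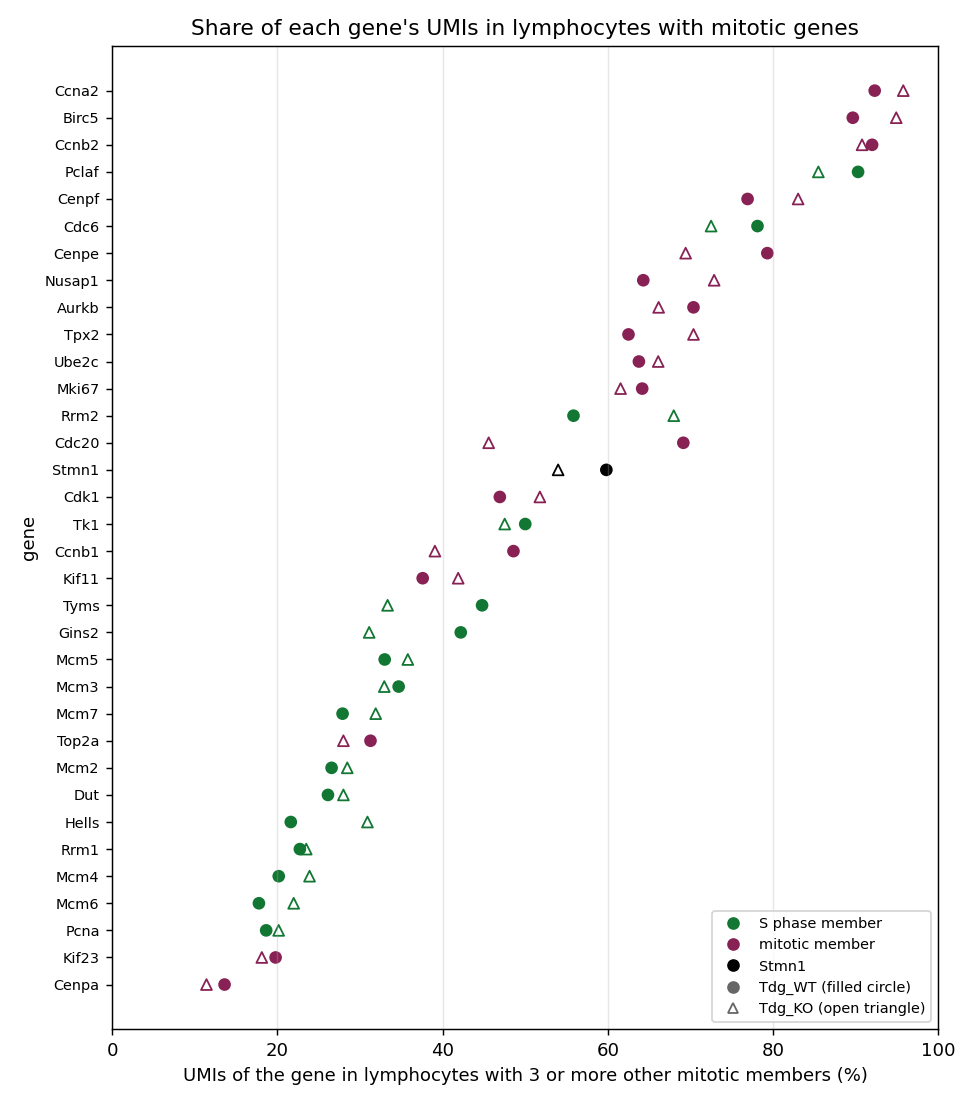
Percentage of each gene's UMIs (x axis) found in lymphocytes with UMIs of 3 or more other mitotic members, for Tdg_WT (filled circles) and Tdg_KO (open triangles), with S phase members in green, mitotic members in purple and Stmn1 in black. Ccna2 (92.3% and 95.8%) and Cenpa (13.6% and 11.4%) are at the ends, and most genes keep their place in both libraries, with Cdc20 (69.1% and 45.6%) the farthest apart.

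Between the libraries, the sum of the S phase members of lymphocytes was higher in Tdg_KO, while the sum of the mitotic members did not differ beyond counting error. Of the 16 S phase members, 9 had an interval above 1 (Mcm2 to Mcm7, Pclaf, Pcna and Dut), 7 an interval that held 1, and 0 an interval below 1. Such intervals narrow as UMIs rise, and no share of all genes is given for them. The count thus only describes the members and does not set them apart from other genes. Values are CPM, and ratios are Tdg_KO over Tdg_WT with exact 95% intervals that cover counting error only. With 1 library per group there is no replicate and no test. The intervals also take UMIs as independent and leave out the spread between cells of a library. In lymphocytes 10% of the cells held 47.9% and 48.7% of the S phase UMIs and 56.8% and 52.5% of the mitotic UMIs. The S phase sum of lymphocytes was 437 and 499 CPM, a ratio of 1.14 (1.11 to 1.17). The mitotic sum was 274 and 279 CPM, a ratio of 1.02 (0.983 to 1.05), 1.06 with every cell weighted equally and 0.954 without Cenpa. The median log2 ratio was 0.17 over the S phase members and -0.04 over the mitotic members, against 0.06 over all 11448 genes with at least 50 UMIs, of which 63.8% were above 0. Of the 34 members, 2 were at least 1.5-fold higher (Mcm2 and Ccnb1) and 1 at least 1.5-fold lower (Ccnb2), against 2.44% and 2.35% of all genes. Over all kept cells 1 member, Mcm2, was higher by this fold, with a ratio of 1.66, and 0 were lower, against 4.45% and 3.34% of all genes.

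The helicase genes were all higher in Tdg_KO lymphocytes beyond counting error. Mcm2 to Mcm7 encode the 6 subunits of the ring that unwinds DNA at origins. Mcm2 was at 11.7 and 17.8 CPM in lymphocytes, a ratio of 1.52 (1.31 to 1.77), and Mcm5 at 15.9 and 21.0 CPM, 1.33 (1.16 to 1.52). Mcm3, Mcm4, Mcm6 and Mcm7 had ratios of 1.12 to 1.22. All 6 intervals lay above 1, against 3 of the 10 other S phase members, namely Pclaf, Pcna and Dut. Whether an interval clears 1 also depends on the number of UMIs, so this contrast does not set the helicase genes apart. Rrm1, at 458 and 592 UMIs, had a ratio of 1.12 with an interval that held 1. That ratio is at the low end of the helicase range, and Mcm6 had 1499 and 1940 UMIs. Mcm6 had 63.7 and 71.3 CPM, but with every cell weighted equally its ratio was 1.04. Summed over the 6 genes, the ratio was 1.20 (1.15 to 1.25), and it was between 1.16 and 1.21 when cells were weighted equally, when mitochondrial and ribosomal protein genes were taken out of the totals, and without barcodes of mixed lineage.

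Mcm2 was above 1 in all 5 classes where it had 50 UMIs. It was at 16.7 and 28.4 CPM in CD8 T-like cells, 8.13 and 14.5 CPM in CD4 T-like cells, and 12.6 and 19.2 CPM in NK-like cells. Its ratios there were 1.70 (1.20 to 2.45), 1.79 (1.14 to 2.85) and 1.52 (1.13 to 2.05). In Treg-like cells the ratio was 1.55 with an interval that held 1 (0.938 to 2.61). Detection moved the same way, from 12.3% to 18.2% of CD8 T-like cells.

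Genes of nucleotide synthesis and of the clamp had ratios nearer to 1 than Mcm2 in lymphocytes. Pcna was at 111 and 128 CPM, a ratio of 1.16 (1.10 to 1.22). Dut, which removes dUTP, was at 83.4 and 89.7 CPM, 1.08 (1.01 to 1.14). Tyms, thymidylate synthase, had a ratio of 1.06 (0.919 to 1.23), Tk1, thymidine kinase, 1.04 (0.835 to 1.30), and Rrm1 1.12 (0.987 to 1.26). Hells, a chromatin remodeler of replicating cells, was the 1 S phase member with a ratio below 1, 0.914 (0.789 to 1.06).

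Among mitotic members of lymphocytes, Ccnb2 was lower at 8.51 and 5.18 CPM, a ratio of 0.609 (0.487 to 0.759), while its relative Ccnb1 was higher at 1.49 and 2.35 CPM, 1.58 (1.03 to 2.46), on 35 and 64 UMIs. Cenpf, a kinetochore protein, was at 5.53 and 4.11 CPM, 0.744 (0.573 to 0.965). Cenpa was at 135 and 146 CPM, 1.08 (1.03 to 1.13). Mki67 was at 19.8 and 19.1 CPM, and Top2a, the topoisomerase that untangles sister chromatids, at 34.2 and 33.9 CPM, with ratios of 0.964 (0.849 to 1.09) and 0.992 (0.901 to 1.09). Both of these proliferation markers thus differed by less than their counting error.

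The classes did not all follow the lymphocyte sums. Comparisons were limited to 11 classes, each with no fewer than 100 cells per library. The S phase sum was higher in Tdg_KO with an interval above 1 in 6, lower in 1 and neither in 4. The mitotic sum was higher in 4, lower in 2 and neither in 5. The 6 members Cdc6, Ccna2, Ccnb1, Cdc20, Tpx2 and Aurkb reached 50 UMIs in none of these classes.

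In CD8 T-like cells S phase members summed to 591 and 705 CPM, a ratio of 1.19 (1.12 to 1.27), and mitotic members to 365 and 350 CPM, 0.958 (0.883 to 1.04), which ranged from 0.865 to 1.27 under the alternatives. Of 26 members measured, 4 were at least 1.5-fold higher (Pclaf, Mcm2, Mcm5 and Nusap1, a spindle protein) and 1 lower (Ccnb2), against 4.88% and 1.9% of all genes. Pclaf was at 16.4 and 32.5 CPM, 1.98 (1.41 to 2.84), with 31.9% and 24.0% of its UMIs in 1 barcode. In the cluster led by Cd8b1 and Gzmk the S phase sum was 406 and 755 CPM, 1.86 (1.64 to 2.11), and in the cluster with Nrgn and Lag3 among its leading genes it was 677 and 686 CPM, 1.01 (0.943 to 1.09). With a coarser clustering the S phase ratio of CD8 T-like cells was 0.963, which turns its direction, but for a different set of cells. There the class was a single cluster of 189 and 262 cells with Nrgn and Lag3 among its leading genes. No cluster with Gzmk among its leading genes was in it.

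In CD4 T-like cells both sums were higher in Tdg_KO, S phase at 413 and 492 CPM, 1.19 (1.11 to 1.27), and mitotic at 216 and 273 CPM, 1.26 (1.15 to 1.38). Of 20 members, 5 were at least 1.5-fold higher (Rrm2, Mcm2, Mcm7, Mki67 and Mcm4) and 0 lower, against 4.74% and 1.87% of all genes, and Pclaf lay just under that fold at 12.1 and 18.1 CPM (interval 1.02 to 2.22). Rrm2 was at 5.67 and 14.0 CPM, 2.47 (1.48 to 4.23), with 34.8% and 33.3% of its UMIs in 1 barcode of each library. Mki67 was at 12.8 and 20.03 CPM, 1.56 (1.08 to 2.28). In the cluster led by Tnfsf11 and Ccl1 the mitotic sum was 155 and 293 CPM, 1.89 (1.64 to 2.19), while in that led by Ramp3 and Cd40lg it was 281 and 256 CPM, 0.910 (0.805 to 1.03).

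Treg-like cells had 396 and 449 CPM of S phase members, 1.14 (1.06 to 1.22), and 350 and 379 CPM of mitotic members, 1.08 (1.003 to 1.17). Of 23 members, 4 were higher (Cenpf, Hells, Pclaf and Mcm2) and 1 lower (Ccnb2) by the same fold, against 3.22% and 2.6% of all genes. Cenpf was at 6.66 and 13.7 CPM, 2.06 (1.23 to 3.58), with 38.1% and 39.3% of its UMIs in 1 barcode of each library, opposite to its ratio over all lymphocytes. Ccnb2 was at 12.1 and 5.88 CPM, 0.488 (0.280 to 0.835). Hells was at 10.2 and 17.7 CPM here, 1.74 (1.13 to 2.73), but at 25.6 and 18.1 CPM in CD4 T-like cells, 0.707 (0.511 to 0.971).

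NK-like cells had the same S phase sum in both libraries, 451 and 451 CPM, with a ratio of 1.00 (0.9497 to 1.05), and a lower mitotic sum, 268 and 215 CPM, 0.801 (0.746 to 0.860). Of 25 members, 1 was at least 1.5-fold higher (Mcm2) and 7 at least 1.5-fold lower (Pclaf, Birc5, Ube2c, Hells, Cenpe, Rrm2 and Stmn1), against 3.33% and 1.73% of all genes. Pclaf was at 16.8 and 4.69 CPM, 0.279 (0.182 to 0.418), Birc5 at 11.6 and 3.69 CPM, 0.318 (0.194 to 0.508), and Ube2c, the ubiquitin-conjugating enzyme of the anaphase-promoting complex, at 6.24 and 2.13 CPM, 0.342 (0.174 to 0.640). Stmn1 was at 101 and 65.5 CPM, 0.647 (0.571 to 0.732), while over all lymphocytes it was at 72.3 and 82.7 CPM, 1.14 (1.07 to 1.22). In Tdg_KO 45.5% of the Pclaf UMIs were in 1 barcode, and without the top barcode of each library the ratio was 0.178. Cenpa was at 134 and 127 CPM, 0.948 (0.860 to 1.04), and without it the mitotic ratio was 0.655.

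The mitotic sum had a ratio below 1 in all 3 NK-like clusters, 0.819 (0.744 to 0.902) in that led by Klra4 and Klra8, 0.779 (0.693 to 0.874) in that led by Gzmc and 0.504 (0.355 to 0.707) in that led by Cma1. NK-like cells were also split by whether they had UMIs of at least 3 mitotic members. The split uses members that were themselves lower, Birc5, Ube2c and Cenpe among them, so its values are a description and do not locate the difference. Cells with 3 or more numbered 46 of 852 (5.40%, 3.98 to 7.14) and 48 of 992 (4.84%, 3.59 to 6.37). Their median depths were 11820 and 14100 UMIs, and thinned to 4000 UMIs per cell the shares were 2.80% (1.67 to 4.39) and 1.36% (0.681 to 2.42). Within these cells S phase members were at 1050 and 737 CPM, a ratio of 0.702 (0.622 to 0.791), and Stmn1 at 562 and 179 CPM, 0.319 (0.256 to 0.395). In the other NK-like cells these ratios were 1.11 (1.04 to 1.17) and 1.12 (0.9498 to 1.33). With the cell cycle genes kept in the clustering, the mitotic ratio of NK-like cells was 1.02, which turns its direction. That clustering left unnamed a lymphoid cluster of 112 and 200 cells led by cell cycle genes. Cells of that cluster were in no class, so the 1.02 is for a class drawn anew, not for the same set of cells.

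The unnamed lymphoid cluster led by Klra1 and Klra6 had 525 and 600 CPM of S phase members, 1.14 (1.07 to 1.22), and 279 and 279 CPM of mitotic members, 0.999 (0.914 to 1.09). Of its 24 members, 0 were higher and 3 lower by 1.5-fold (Ccnb2, Mki67 and Cenpe), against 3.51% and 1.91% of all genes. Mki67 was at 29.1 and 16.3 CPM, 0.559 (0.404 to 0.774). In naive-like and γδ T-like cells, 0 of 8 and 0 of 5 members passed the fold in either direction, against 4.16% higher and 3.85% lower, and 8.63% and 3.01%, of all genes.

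B-like cells had 346 and 381 CPM of S phase members, 1.10 (0.975 to 1.25), and 288 and 288 CPM of mitotic members, 1.00 (0.870 to 1.15). Of 11 members, 1 was higher (Stmn1) and 1 lower (Mcm3), against 5.01% and 3.6% of all genes. In this class 24.5% and 26.9% of barcodes held genes of 2 lineages, as did 90% and 100% of its 20 and 6 cells with mitotic genes. Without such barcodes the S phase ratio was 0.917 and the Stmn1 ratio 1.10, down from 1.78.

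Macrophage-like cells had higher sums in Tdg_KO, but their clusters differed. The S phase sum was 400 and 528 CPM, 1.32 (1.17 to 1.49), and the mitotic sum 344 and 549 CPM, 1.60 (1.40 to 1.82). Of 17 members, 7 were at least 1.5-fold higher (Mcm3, Ube2c, Mki67, Cdk1, Top2a, Rrm1 and Rrm2) and 0 lower, against 14.9% and 5.25% of all genes. Cdk1, the mitotic kinase, was at 29.5 and 55.6 CPM, 1.89 (1.22 to 2.97), Top2a at 28.5 and 53.2 CPM, 1.87 (1.20 to 2.96), and Mcm3 at 18.4 and 40.3 CPM, 2.19 (1.28 to 3.88). Ube2c was at 48.8 and 99.98 CPM, 2.05 (1.48 to 2.88), but 37.9% of its Tdg_KO UMIs were in 1 barcode, and without the barcode with the most member UMIs its ratio was 1.34.

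In the macrophage-like cluster led by Spp1 and Arg1 the mitotic sum was 125 and 747 CPM, with 67.9% of the Tdg_KO UMIs in 1 barcode. In the larger cluster led by C1qc and C1qa the mitotic sum went the other way, 542 and 440 CPM, 0.811 (0.697 to 0.944), and the S phase sum was 566 and 608 CPM, 1.07 (0.935 to 1.24). The C1qc cluster held 140 of the 269 macrophage-like cells of Tdg_WT and 263 of the 332 of Tdg_KO, and the Spp1 cluster 116 and 57. Its S phase and mitotic levels exceeded those of the Spp1 cluster in Tdg_WT, 566 against 199 CPM and 542 against 125 CPM. The part of this makeup in the class ratios was not tested.

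In cDC2-like cells both sums were lower in Tdg_KO, S phase at 620 and 519 CPM, 0.837 (0.757 to 0.925), and mitotic at 313 and 197 CPM, 0.629 (0.539 to 0.733). Of 17 members, 1 was higher (Mcm4) and 8 lower by 1.5-fold (Rrm2, Pclaf, Birc5, Mki67, Stmn1, Cenpa, Rrm1 and Gins2), against 11.4% and 3.6% of all genes. Pclaf was at 112 and 45.8 CPM, 0.408 (0.301 to 0.549), and Rrm2 at 39.2 and 13.2 CPM, 0.337 (0.188 to 0.579). The clusters of this class did not share the S phase direction. In the largest, led by Cd209a and with Clec10a among its leading genes (71 and 56 cells), the S phase sum was higher in Tdg_KO, at 189 and 373 CPM, 1.97 (1.64 to 2.38), and the mitotic sum lower, 0.489 (0.364 to 0.652), with 51.6% of its Tdg_WT UMIs in 1 barcode. The S phase sum was lower in the cluster led by Epcam (29 and 34 cells), at 2214 and 1304 CPM, 0.589 (0.5101 to 0.679), and in that led by Dcstamp (7 and 21 cells), with 60% of its Tdg_WT UMIs in 1 barcode. The Epcam cluster held 520 of the 823 S phase UMIs of the class in Tdg_WT and 310 of the 747 in Tdg_KO. Its class name is weakly borne out, with 4 class markers detected and a mean marker z score of 0.15, against 0.62 in the Cd209a cluster. In the 92 and 93 cDC2-like cells with fewer than 3 mitotic members the S phase ratio was 1.495 (1.27 to 1.76). The class sums rested on few cells, since 10% of the cells held 70.5% and 58.5% of the S phase UMIs. With every cell weighted equally, the mitotic ratio was 1.35, Mki67 was at 1.32 and Birc5 at 1.38, which turns their direction. With cell cycle genes kept in the clustering the S phase ratio was 1.44, but for a different set of cells. That clustering left unnamed a phagocyte cluster of 41 and 69 cells led by cell cycle genes, and an Epcam-led cluster of 20 and 27 cells.

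Neutrophil-like cells had low levels of these genes and the highest ratios of both sums among the 11 classes compared. Their median depths were 1804 and 2235 UMIs, and 4 (0.584%, 0.159 to 1.49) and 5 (2.08%, 0.677 to 4.78) of the cells had 3 or more mitotic members. Their sums had ratios of 2.13 (1.77 to 2.58) for S phase and 2.02 (1.53 to 2.66) for mitotic members, with 2 of 3 members (Cenpa and Stmn1) at least 1.5-fold higher and 0 lower against 20.5% and 6.72% of all genes. With cells thinned to 1000 UMIs, which left out 188 and 73 cells, the mitotic ratio was 0.3998. Only 30 and 5 cells then had a UMI of a mitotic member, so this ratio carries large counting error. With classes from marker gates the mitotic ratio was 0.793 and without barcodes of 2 lineages 1.20. The Mcm2 to Mcm7 sum was at 33.3 and 107.6 CPM, 3.23 (2.28 to 4.61). Barcodes of 2 lineages were 6.57% and 12.03% of this class. The part of free RNA in these counts was not tested.

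**Figure D4:**
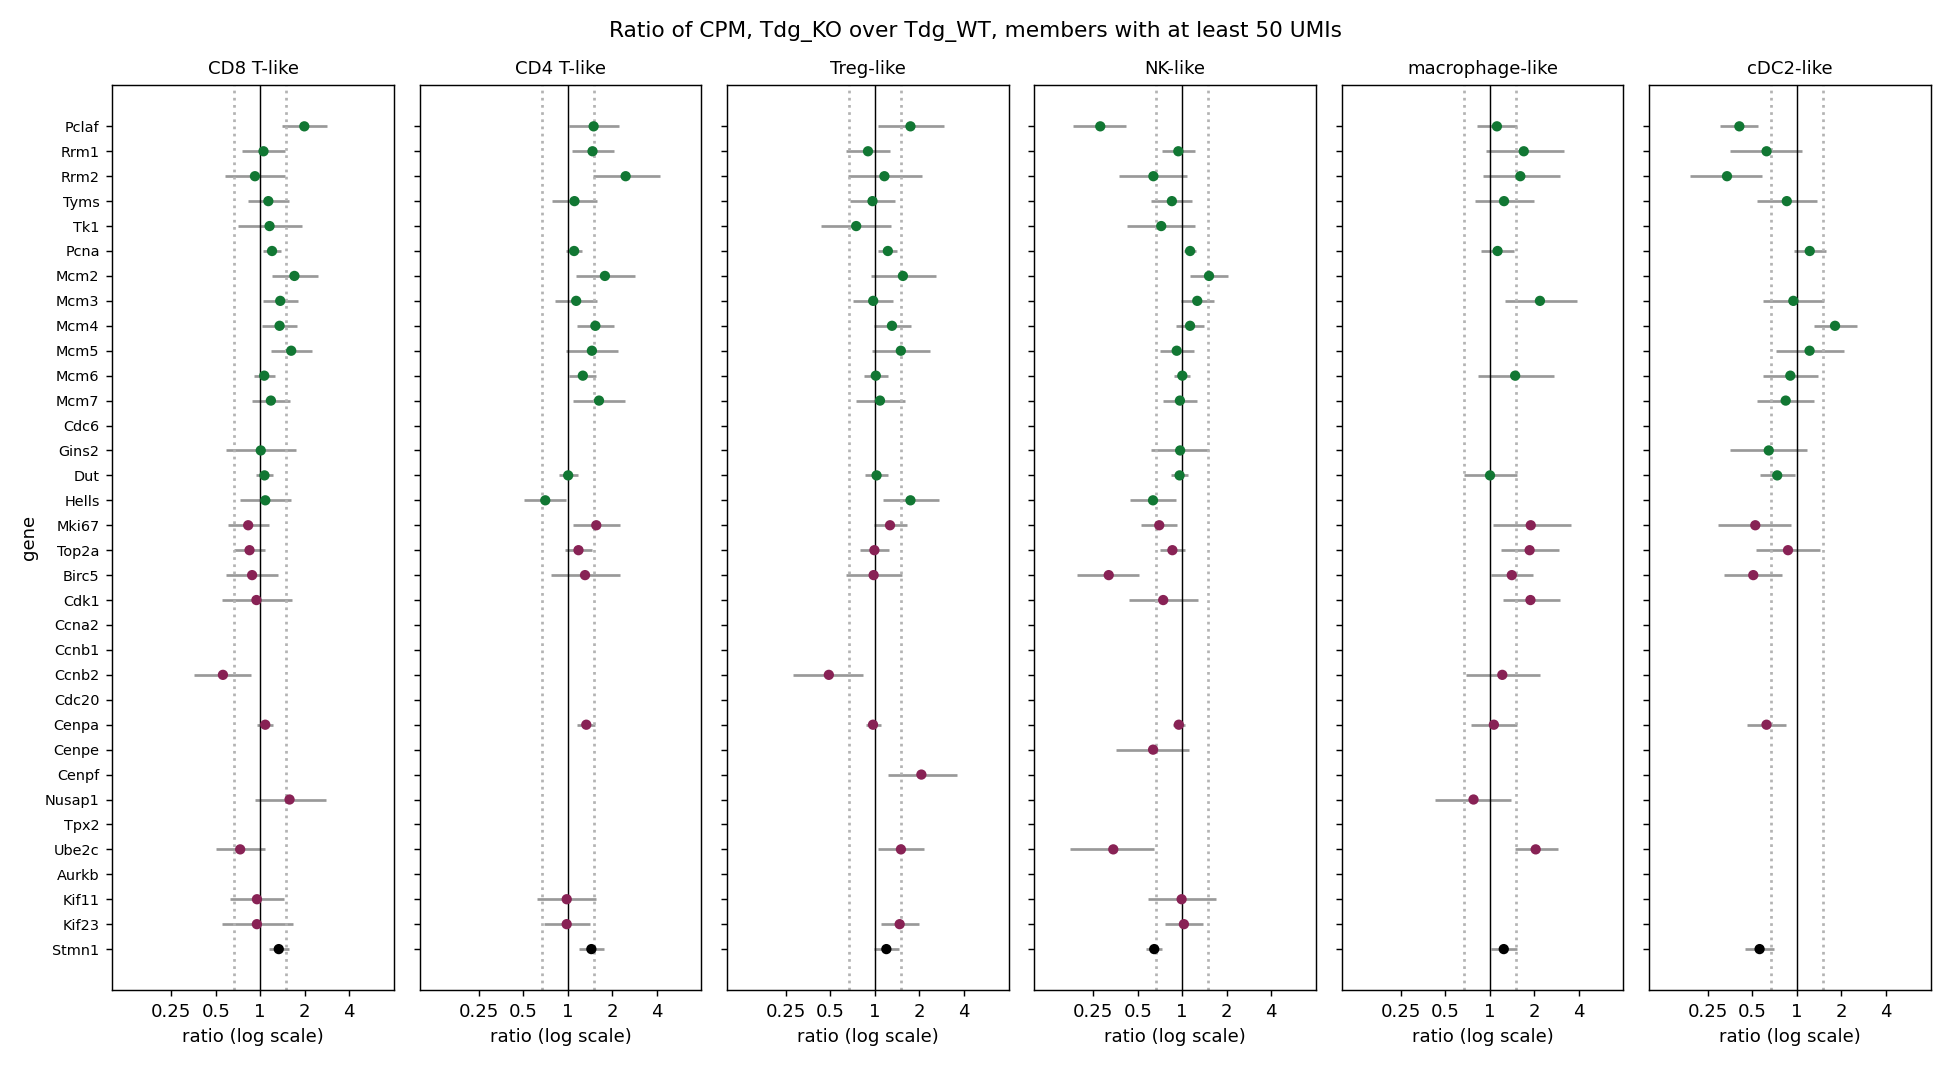
Ratio of CPM, Tdg_KO over Tdg_WT (log scale), for each member with at least 50 UMIs over both libraries in 6 classes, with exact 95% intervals that cover counting error only; green is S phase, purple mitotic and black Stmn1, and dotted lines mark 1.5-fold. Points lie mostly right of 1 in CD4 T-like (Mcm2 1.79) and macrophage-like cells, and Pclaf (0.279) and Birc5 (0.318) lie far left in NK-like cells.

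The share of cells with mitotic genes was also counted by class. It was 11.4% (8.14 to 15.4) and 15.3% (11.8 to 19.3) in CD8 T-like cells, 9.39% (6.96 to 12.3) and 10.9% (8.43 to 13.8) in Treg-like cells, and 2.25% (1.29 to 3.63) and 3.89% (2.54 to 5.70) in CD4 T-like cells. In naive-like T cells it was 2 of 305 and 2 of 212 cells. The highest share in a named immune class was that of cDC1-like cells, 20.8% (10.8 to 34.1) and 28.4% (18.9 to 39.5). All these intervals overlap between the libraries.

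In lymphocytes the share of 5.76% and 6.98% turned direction with cells thinned to 4000 UMIs, to 2.60% (2.03 to 3.28) and 2.23% (1.73 to 2.82), and also where at least 5 members were asked for.

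Depth moved with the share over all cells, which was 7.14% (6.47 to 7.85) in Tdg_WT and 11.6% (10.8 to 12.5) in Tdg_KO. Mixed clusters held 115 of the 393 such cells in Tdg_WT (29.3%) and 271 of 662 in Tdg_KO (40.9%). Without them the shares were 5.43% and 7.91%. With every cell thinned to 4000 UMIs, which left out 1741 and 1284 shallower cells, they were 3.51% (2.94 to 4.15) and 3.90% (3.35 to 4.51), and in the mixed clusters they went from 29.6% and 36.04% to 5.85% and 7.07%. Thinned in this way, the macrophage-like shares were 11.7% and 18.0%, of the 120 and 100 cells deep enough, and the CD8 T-like shares 3.79% and 3.77%. Before thinning they were 9.29% and 12.05% in macrophage-like cells and 11.4% and 15.3% in CD8 T-like cells. Thinning left out 149 and 232 macrophage-like cells but 35 and 35 CD8 T-like cells. The order of these classes thus changed together with the depth and the set of cells, and the part of each was not tested.

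**Figure D5:**
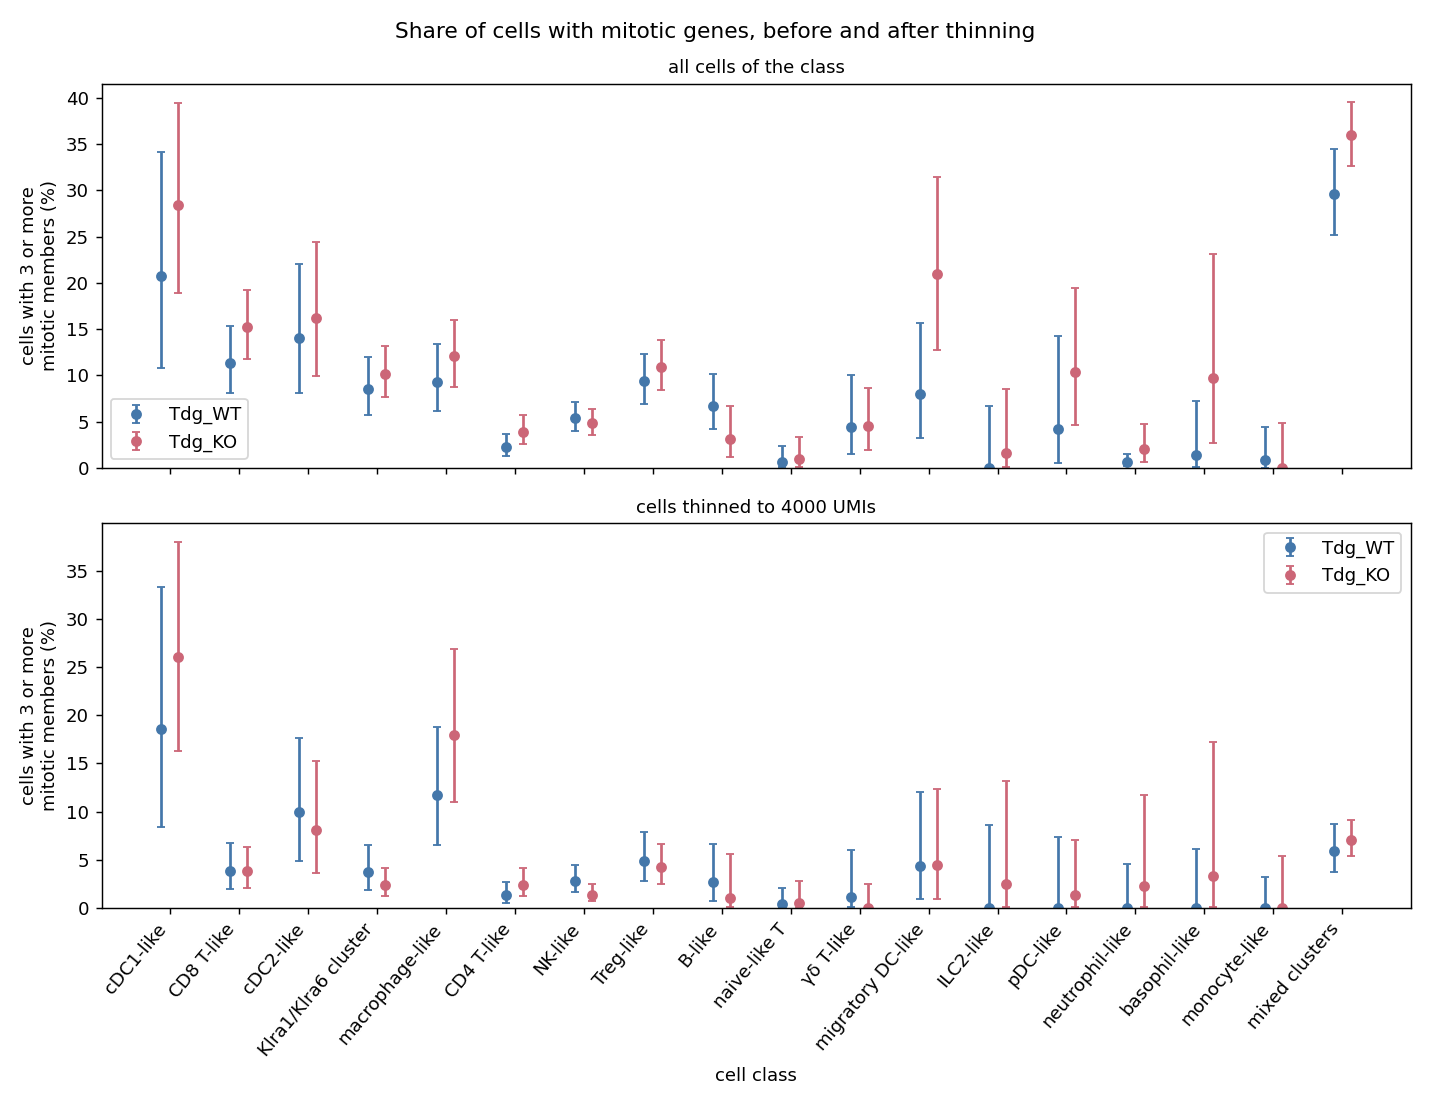
Percentage of cells with UMIs of 3 or more of the 17 mitotic members by immune class and in the mixed clusters, in all cells (top) and in cells thinned to 4000 UMIs (bottom), Tdg_WT in blue and Tdg_KO in red, with exact binomial 95% intervals. The mixed clusters are highest in the top panel (29.6% and 36.04%) and at 5.85% and 7.07% in the bottom panel, where cDC1-like and macrophage-like cells are highest.

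Other genes of the same pathways, from lists that exclude the members, were compared in lymphocytes. Of 33 further replication genes measured, 28 had a log2 ratio above 0 with a median of 0.16, and 2 were at least 1.5-fold higher and 0 lower. Of all genes 63.8% were above 0 with a median of 0.06, and 2.44% were higher and 2.35% lower by this fold. Pole, the catalytic subunit of DNA polymerase epsilon, was at 1.999 and 3.45 CPM, 1.73 (1.20 to 2.51), and Orc1, of the origin recognition complex, at 0.935 and 1.54 CPM, 1.65 (0.962 to 2.90). The most counted were Slbp, the histone mRNA binding protein, at 111 and 122 CPM, and Rfc2, a clamp loader subunit, at 43.3 and 44.8 CPM, with ratios of 1.11 and 1.04. Rfc4 was lowest at 0.830 (0.704 to 0.977).

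Of 31 further mitotic genes, 16 were above 0 with a median log2 ratio of 0.01, and 0 were higher and 1 lower by 1.5-fold, against the same 63.8%, 0.06, 2.44% and 2.35% over all genes. Ckap2l was at 0.624 (0.362 to 1.06), the kinetochore gene Knl1 at 0.689 (0.497 to 0.952) and Smc2, a condensin subunit, at 1.40 (1.25 to 1.58). The most counted were Cks2, a CDK-binding protein, at 152 and 135 CPM, 0.885 (0.845 to 0.927), and the condensin gene Smc4 at 133 and 121 CPM, 0.9099 (0.866 to 0.956).

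Of 13 G1 cyclins, CDKs and E2F genes, 10 were above 0 with a median log2 ratio of 0.12, and none passed the fold in either direction, against the shares of all genes given above. Ccnd2, a D-type cyclin, was at 264 and 287 CPM, 1.09 (1.05 to 1.12), and Cdk6, its kinase partner, at 91.04 and 92.8 CPM. Ccnd1 had the highest ratio, 1.42 (1.07 to 1.90), followed by E2f1 at 1.31 (0.995 to 1.73), and Myc the lowest, 0.854 (0.773 to 0.943).

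Of 10 CDK inhibitor and pocket protein genes, 4 were above 0 with a median log2 ratio of -0.03, and none passed the fold. Over all genes 63.8% were above 0 with a median of 0.06, and 2.44% were higher and 2.35% lower by this fold. Cdkn1b, a CDK inhibitor of resting cells, was at 191 and 184 CPM, 0.963 (0.924 to 1.00), and Cdkn1a at 152 and 150.4 CPM, 0.992 (0.948 to 1.04). Cdkn2d, an INK4-type inhibitor, was at 84.8 and 65.0 CPM, 0.767 (0.719 to 0.818), Cdkn2b at 0.671 (0.469 to 0.955) and Cdkn1c, the highest, at 1.18 (0.881 to 1.60).

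Of 11 quiescence genes, 4 were above 0 with a median log2 ratio of -0.03, and none passed the fold. Again 63.8% of all genes were above 0 with a median of 0.06, and 2.44% were higher and 2.35% lower. The most counted were lower, Btg1 at 0.959 (0.949 to 0.9699) and Klf2 at 0.902 (0.883 to 0.9203), as was Txnip, the lowest, at 0.836 (0.796 to 0.878). Klf4, the highest at 1.19 (1.125 to 1.25), Foxo1 at 1.175 (1.12 to 1.24) and Btg2 at 1.12 (1.09 to 1.15) went the other way, all 3 with intervals above 1.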

How the data were processed

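Each value is a whole-number UMI count for 1 gene in 1 barcode, unnormalized as deposited by the authors, and written by Cell Ranger 6.0.1, per the file headers. Seurat and the build mm10 are also named in the submitters' processing notes, with aligner settings not given in the sources used here. In all, 39819010 and 52586319 UMIs lay in 5604 and 5896 barcodes. Barcodes under 200 genes or over 10% mitochondrial UMIs were removed. Counts were scaled to 10000 per cell, and cells of both libraries were clustered in scanpy 1.11.5 (Python 3.11.15, leidenalg 0.10.2) on 2000 variable genes without cell cycle genes, with 30 components, 15 neighbours and Leiden resolution 1. Lymphoid and phagocyte clusters were clustered again. Clusters were named from 19 marker sets where at least 3 markers were detected, each in at least 10% of cells, so class names end in -like. No doublet caller was run. In its place, a barcode counted as one of 2 lineages where 3 or more markers of both were detected, and the mixed clusters were set apart after the data were seen.

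Counts were summed by class and library (CPM). Ratios have exact conditional Poisson intervals and shares Clopper-Pearson intervals, computed with scipy 1.17.1 at 95%, for counting error only. The ratio code was tested on simulated Poisson counts, which cannot show the effect of UMIs bunched in few cells. Ratios need at least 50 UMIs over both libraries. All 34 members could be named. Full values were given for the members with the most UMIs and the highest and lowest ratios by class, and from each further list the 2 most counted and the 2 with ratios farthest from 1. The highest and lowest of a list, Foxo1 and Btg2 were added after their values were seen. The members and lists were chosen with earlier results of these data known. UMIs are not divided by gene length, so levels of different genes are not compared. Among the genes measured here, no member overlaps another on its own strand, and 8 overlap one on the other strand. Annotated genes that were not measured were left out of this count.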

Additional observations from a re-analysis of the deposited data

How the results depend on the processing

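Of 421 values recomputed for the sums, shares and counts of members, 313 lay within the counting interval of the reported ratio (for counts of members, within 1.5 times), 97 moved beyond that and 11 turned. A value is called turned where the reported interval excluded 1 and the alternative lay on the other side of 1. Where the reported interval held 1, 19 of the 97 and 31 of the 313 also lay on the other side of 1 from the reported ratio. None moved or turned with totals free of mitochondrial and ribosomal protein genes, or with the stricter cell filter of 500 genes and 5% mitochondrial UMIs. The S phase ratio of lymphocytes was between 1.13 and 1.19 under the 10 settings run for it. Leaving out Cenpa, leaving out Pcna, Mcm6 and Dut, thinning to 4000 UMIs, leaving out the mixed clusters and the settings for single genes were chosen after seeing the data. Of 360 values for single genes and the Mcm sum, 341 stayed, 17 moved and 2 turned. No paired analysis was possible because each group has 1 library. Ratios are Tdg_KO over Tdg_WT, and the cause was not tested for the values that follow, which moved or turned. With cells thinned to 1000 UMIs the S phase ratio was 1.27 in CD8 T-like, 1.01 for CD4 T-like, 1.26 in Treg-like, 1.36 for naive-like T, 1.56 in γδ T-like, 0.8985 for NK-like, 0.9501 in cDC2-like, 1.38 for the Klra cluster and 1.22 in all cells. The mitotic ratio was 1.27 in CD8 T-like, 1.375 for naive-like T, 1.203 in γδ T-like, 1.2 for B-like, 0.3998 in neutrophil-like (turned), 1.61 for cDC2-like (turned), 1.09 in lymphocytes and 1.22 for all cells. Only 30 and 5 neutrophil-like and 15 and 18 cDC2-like cells then had a mitotic UMI, so the turned ratios carry large counting error. The ratio of shares was 0.426 in CD8 T-like (2 and 1 cells), 2.18 for Treg-like (2 and 5) and 0.1703 in NK-like (5 and 1). It was 1.53 for B-like (1 and 1), 2.89 in cDC2-like (2 and 6) and 0.983 for lymphocytes (19 and 20, turned). With so few cells these ratios carry large counting error. Without barcodes of 2 lineages the S phase ratio was 1.28 in CD8 T-like and 0.917 for B-like. The mitotic ratio was 1.203 in neutrophil-like and 1.03 for all cells. At Leiden resolution 0.5 the S phase ratio was 0.963 in CD8 T-like (turned), 1.31 for CD4 T-like and 1.23 in the Klra cluster. The CD8 T-like class there was a different set, of 189 and 262 cells. The mitotic ratio was 1.15 in CD4 T-like. With classes from markers per barcode the S phase ratio was 1.31 in CD8 T-like, 1.17 for naive-like T, 0.897 in B-like, 1.33 for neutrophil-like and 1.19 in lymphocytes. The mitotic ratio was 1.12 in CD8 T-like, 0.259 for γδ T-like, 0.982 in NK-like, 0.793 for neutrophil-like (turned) and 1.28 in macrophage-like. Without Pcna, Mcm6 and Dut the S phase ratio was 1.31 in CD8 T-like, 1.345 for CD4 T-like, 0.929 in NK-like, 3.08 for neutrophil-like, 1.175 in lymphocytes and 1.23 for all cells. With cell cycle genes kept in the clustering the S phase ratio was 1.09 in CD4 T-like, 1.12 for NK-like, 1.58 in macrophage-like, 1.44 for cDC2-like (turned) and 1.25 in the Klra cluster. In this setting clusters led by cell cycle genes were left unnamed, so the classes did not hold the same cells. The mitotic ratio was 1.08 in CD8 T-like, 1.02 for NK-like (turned), 1.365 in macrophage-like, 0.8355 for cDC2-like, 1.21 in the Klra cluster and 1.08 for lymphocytes. The ratio of shares was 3 in cDC2-like and 2.07 for the Klra cluster. With cells weighted equally the S phase ratio was 1.25 in all cells. The mitotic ratio was 1.09 in CD8 T-like, 0.914 for NK-like, 1.075 in neutrophil-like, 1.35 for cDC2-like (turned), 1.06 in lymphocytes and 1.21 for all cells. Mki67 was then at 1.32 and Birc5 at 1.38 in cDC2-like cells (both turned). Without Cenpa the mitotic ratio was 0.865 in CD8 T-like, 1.19 for Treg-like, 1.55 in γδ T-like, 0.655 for NK-like, 0.676 in B-like, 0.8025 for the Klra cluster and 0.954 in lymphocytes. Without the top barcode of each library the mitotic ratio was 1.37 in macrophage-like and 1.1 for all cells. Without the mixed clusters the mitotic ratio was 0.999 in all cells (turned). With at least 5 mitotic members the ratio of shares was 0.358 in NK-like (12 and 5 cells) and 0.957 for lymphocytes (56 and 57, turned). With cells thinned to 4000 UMIs the ratio of shares was 0.485 in NK-like, 0.631 for the Klra cluster, 0.855 in lymphocytes (turned) and 1.11 for all cells. At 2-fold 1 of 20 members was higher in CD4 T-like (0.479% of all genes) and 1 of 23 for Treg-like (0.477%). It was 1 of 3 in neutrophil-like (6.42%) and 2 of 17 for macrophage-like (3.71%). Higher were 0 of 26 in CD8 T-like (0.604%), 0 of 25 for NK-like (0.278%) and 0 of 11 in B-like (0.609%). So were 0 of 17 in cDC2-like (3.02%), 0 of 34 for lymphocytes (0.341%) and 0 of 34 for all cells (1.24%). Lower at 2-fold were 3 of 25 members in NK-like (0.345% of all genes) and 2 of 17 for cDC2-like (0.624%). They were 0 of 26 in CD8 T-like (0.334%) and 0 of 11 for B-like (0.679%). In the Klra cluster they were 0 of 24 (0.291%) and in lymphocytes 0 of 34 (0.585%). With at least 20 UMIs, 3 of 13 members were 1.5-fold higher in γδ T-like (14.3% of all genes) and 3 of 20 for B-like (9.39%). They were 9 of 12 in neutrophil-like (26.6%) and 13 of 27 for macrophage-like (21.2%). In cDC2-like they were 2 of 27 (16.2%) and for the Klra cluster 1 of 32 (6.2%). With at least 20 UMIs the lower members were 2 of 32 in CD8 T-like (3.52% of all genes) and 13 of 31 for NK-like (3.58%). In B-like they were 4 of 20 (6.59%).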
